A study of Rattus norvegicus with 325 samples.

Results

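Transcripts of 10 glycolytic enzymes were followed in 4 skeletal muscles of ageing rats. The genes were chosen by name and are Hk2, Gpi, Pfkm, Aldoa, Gapdh, Pgk1, Pgam2, Eno3, Pkm and Ldha. They are 10 of 17315 distinct gene symbols in the count files, and each was found on exactly 1 line of every file. Bulk RNA was sequenced from 4 muscles of male rats of the outbred Sprague Dawley stock, namely the diaphragm (83 libraries), the gastrocnemius (73), the soleus (84) and the tibialis anterior (85). The 7 ages were 6 and 9 months, 12 and 18 months, and 21, 24 and 27 months, which gave 28 groups of 1 muscle at 1 age with 9 to 13 libraries each. All groups share the sex, the stock, the supplier and the diet, and no treatment or genotype is named in the labels, so the groups differ by muscle and age. The rats were aged at the supplier and moved to the study site some weeks before tissue was taken. All tissue of an age group was collected within 1 day, and the effect of that day cannot be told apart from age. By the study's own description each library of a group came from a different rat, but the labels do not say which libraries of different muscles share a rat, and comparisons between muscles treat them as separate.

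The libraries held 17.6 to 85.3 M counts (M, 1e6 counts), with a median of 31.9 M. Hk2, the member with the fewest counts, had 802 to 9388 counts per library, so counting error was small for all members. Levels are given as CPM, counts scaled to 1e6 per library with TMM factors from all libraries, and as the lowest, median and highest library of a group. Marker genes fitted the muscle labels at 6 months. The slow myosin Myh7 had a median of 47514 CPM in the soleus and 2062 CPM in the tibialis anterior, and the fast myosin Myh4 had 8.39 and 87432 CPM in the same muscles. Numbers running through the sample names formed 3 series. All gastrocnemius libraries lay in 1 series of their own, so a difference between the gastrocnemius and another muscle cannot be told apart from that series. All 12-month libraries of the other muscles, and 1 library at 21 months in each of them, lay in another.

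Glycolysis breaks glucose down to pyruvate in the cytosol and yields ATP without oxygen. Fast muscle fibres lean on it for short, strong contractions, whereas slow fibres and the diaphragm draw more on mitochondria. Hexokinase 2 (Hk2) traps glucose in the cell, glucose phosphate isomerase (Gpi) rearranges the sugar, and muscle phosphofructokinase (Pfkm) commits it to the pathway. Aldolase A (Aldoa) then splits it. Gapdh and phosphoglycerate kinase 1 (Pgk1) carry the oxidation and the first ATP-yielding step, muscle phosphoglycerate mutase (Pgam2) and muscle enolase (Eno3) prepare the last intermediate, pyruvate kinase (Pkm) forms pyruvate, and lactate dehydrogenase A (Ldha) turns pyruvate into lactate. Pfkm, Pgam2 and Eno3 are forms typical of muscle, while Gpi, Gapdh and Pgk1 are made in nearly all cells. In bulk tissue, fewer cells of a type and less RNA per cell cannot be told apart.

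Promoter windows were read from RefSeq on the GRCr8 build for 9 of the 10 genes, which gave 11 windows because Aldoa has 3 annotated starts, and Pgk1 had no window. A window covers 250 bases before and 50 after an annotated start, and positions count from 0 at the first transcribed base. GRCr8 served for sequence only, since the authors counted on an older rat reference. Shown are the 250 bases before the start, 5′ to 3′, of Pfkm, Ldha, the second Aldoa start and Hk2. Pfkm and Ldha fell in the fast limb muscles, and the change of Hk2 there was under 1.5-fold. The second Aldoa start was the only window with a MEF3 match. Capitals mark ACGTG, the core of a hypoxia response element, or its reverse complement CACGT, and TCAGGTT, the MEF3 site of muscle promoters. Pfkm lies on the + strand at chr7:131113849-131114098, Ldha on the + strand at chr1:106507842-106508091, Aldoa start 2 on the - strand at chr1:190837649-190837898, and Hk2 on the - strand at chr4:116841276-116841525.
Pfkm: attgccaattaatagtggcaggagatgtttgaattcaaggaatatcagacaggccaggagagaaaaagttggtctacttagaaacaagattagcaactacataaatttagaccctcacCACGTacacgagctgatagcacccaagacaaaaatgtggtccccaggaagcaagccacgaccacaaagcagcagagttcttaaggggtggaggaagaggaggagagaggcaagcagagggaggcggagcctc
Ldha: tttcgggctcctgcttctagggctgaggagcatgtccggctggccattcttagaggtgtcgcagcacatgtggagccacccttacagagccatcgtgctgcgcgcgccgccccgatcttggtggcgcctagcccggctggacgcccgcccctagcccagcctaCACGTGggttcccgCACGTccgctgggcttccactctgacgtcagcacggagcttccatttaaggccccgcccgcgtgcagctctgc
Aldoa start 2: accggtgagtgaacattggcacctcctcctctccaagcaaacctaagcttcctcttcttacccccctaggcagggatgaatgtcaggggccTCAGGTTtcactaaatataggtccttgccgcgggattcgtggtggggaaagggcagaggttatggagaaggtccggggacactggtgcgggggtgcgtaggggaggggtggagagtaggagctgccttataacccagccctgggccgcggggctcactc
Hk2: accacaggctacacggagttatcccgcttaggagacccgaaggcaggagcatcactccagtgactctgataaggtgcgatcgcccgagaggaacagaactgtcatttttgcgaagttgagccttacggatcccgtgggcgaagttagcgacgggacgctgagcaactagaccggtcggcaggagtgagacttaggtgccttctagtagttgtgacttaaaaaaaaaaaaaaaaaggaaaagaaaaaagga
The core ACGTG, searched on both strands, lay in 5 of the 11 windows, those of Gpi, Pfkm, Gapdh, Ldha and the third Aldoa start, against 19.3% of all 33469 promoter windows in the table. Ldha held 3 matches, at -87, -86 and -73, of which the first 2 overlap in CACGTG, the E-box read by Myc and by the carbohydrate response factor. That E-box was in 1 member window and in 6.42% of all windows. The general E-box CANNTG, which includes it, was in 7 member windows and in 72.1% of all. TCAGGTT was found once, at -159 of the second Aldoa start, and in 4.03% of all windows. A match in a window is a description of its letters and not evidence of a bound site.

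At 6 months the glycolytic transcripts separated the muscles in a fixed order, lowest in the soleus, higher in the diaphragm and highest in the tibialis anterior and gastrocnemius. Ldha had 118 CPM in its lowest, 146 in its median and 191 in its highest soleus library. The diaphragm libraries ran from 548 through 666 to 733 CPM, the tibialis anterior from 2288 through 2453 to 2543 CPM, and the gastrocnemius from 2045 through 2262 to 3165 CPM. The soleus and diaphragm ranges of Ldha did not touch each other or those of the fast muscles. Pfkm, at the committed step, ran from 321 through 362 to 382 CPM in the soleus and from 1043 through 1184 to 1357 CPM in the diaphragm. It ran from 2986 through 3165 to 3302 CPM in the tibialis anterior and from 2925 through 3186 to 4325 CPM in the gastrocnemius. Hk2, the entry step, was far more even, with medians of 74.6 CPM in the soleus, 115 in the diaphragm, 128 in the gastrocnemius and 141 in the tibialis anterior, and its ranges in the last 3 muscles overlapped.

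**Figure D1:**
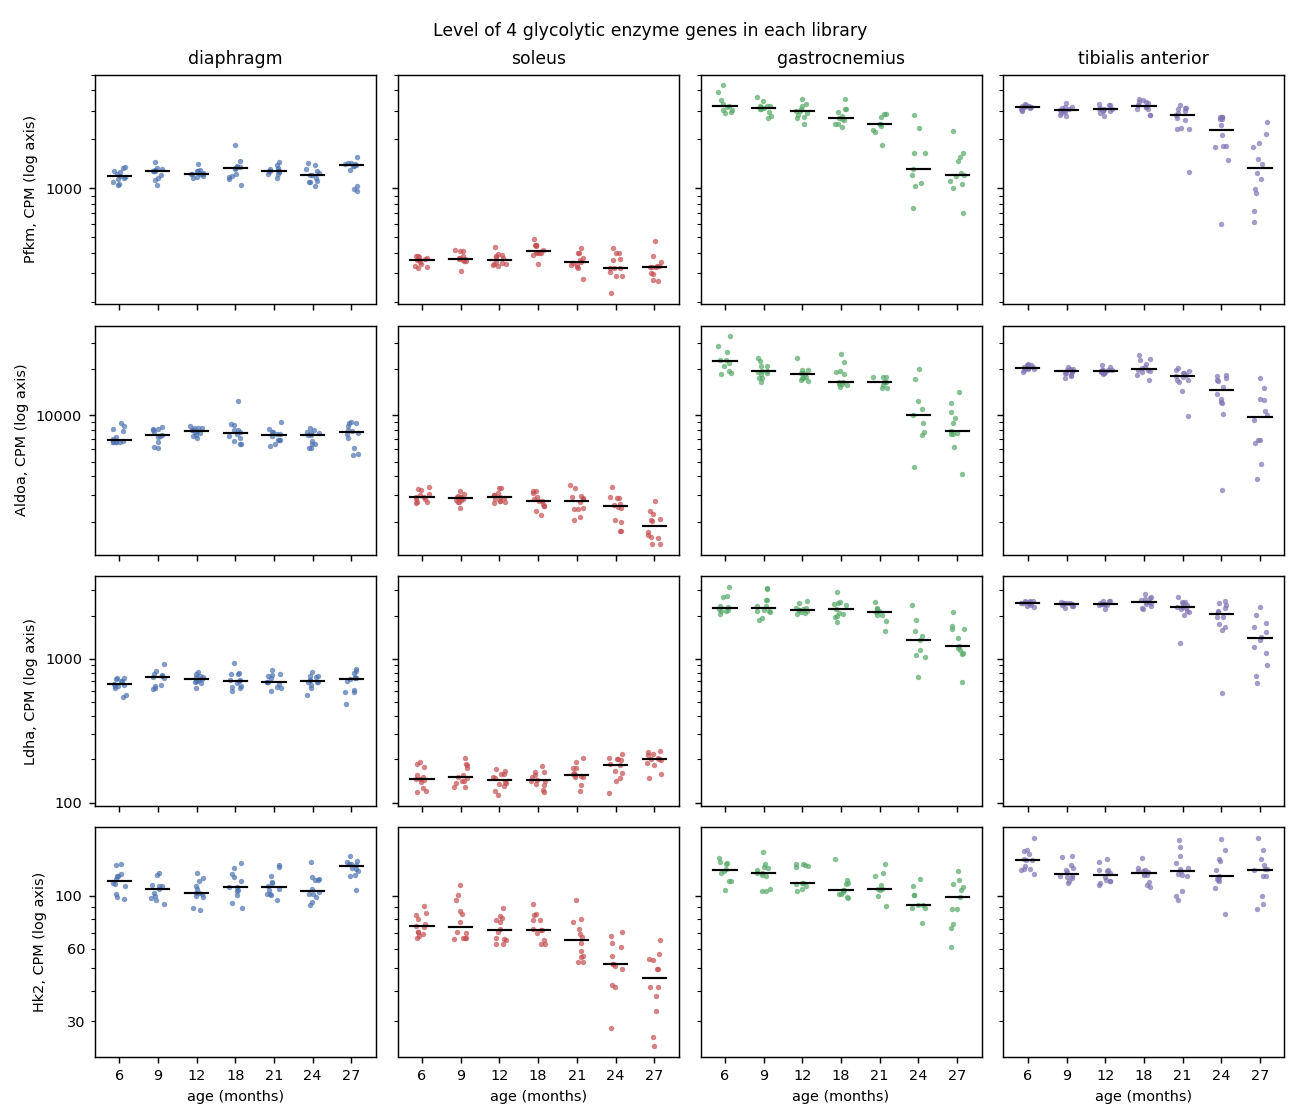
Level of Pfkm, Aldoa, Ldha and Hk2 in every library, in CPM on a log axis, by age in months and muscle. Points are libraries and black lines group medians. Pfkm, Aldoa and Ldha lie lowest in the soleus and drop with widening spread at 24 and 27 months in the gastrocnemius and tibialis anterior, while the diaphragm shows no called change.

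A gene was called where the limma-voom test gave a Benjamini-Hochberg adjusted p under 0.05 and the change was over 1.5-fold. All 10 members were called higher in the gastrocnemius than in the soleus at 6 months, where 21.3% of all genes were, and all 10 were lower in the soleus than in the tibialis anterior, where 18.8% were. The differences between gastrocnemius and soleus ran from 0.75 on the log2 scale for Hk2 to 4.00 for Ldha. Ldha was 16-fold higher in the gastrocnemius (SE 0.11 on the log2 scale, adjusted p = 1.4e-112), Pkm 13.7-fold, Pgam2 11.9-fold and Eno3 11.1-fold. Gapdh, at 2.82-fold, and Hk2, at 1.68-fold, differed least. The calls of Hk2 against the soleus were lost with total-count scaling, at 0.35 for the gastrocnemius and -0.49 for the soleus minus the tibialis anterior. The diaphragm stood between, with 9 members called lower than in the gastrocnemius (16.5% of all genes), 9 lower than in the tibialis anterior (12.8%) and 9 higher than in the soleus (13.7%). With total-count scaling Gapdh lost its calls against the gastrocnemius (-0.52) and the tibialis anterior (-0.49). Hk2 was the member not called against the fast muscles, with -0.14 against the gastrocnemius and -0.30 against the tibialis anterior, and both signs turned when libraries were scaled by total counts alone (0.29 and 0.15). Gapdh was the one not called against the soleus, with a difference of 0.54 that lay under 1.5-fold. No member was called between gastrocnemius and tibialis anterior, a comparison in which 17.3% of genes were called in either direction. The log2 differences there ran from -0.15 for Hk2 to 0.38 for Pgam2, and for Ldha the 95% interval was -0.26 to 0.18.

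With age the glycolytic enzymes fell in the 2 fast limb muscles and not in the diaphragm. At 27 months 9 of 10 members were called lower than at 6 months in the gastrocnemius, where 7.76% of 11865 tested genes were, and 9 in the tibialis anterior, where 10.4% of 11754 were. The soleus had 2 members called lower (5.78% of all genes) and the diaphragm none (4.25%). No member was called higher in any muscle at any age. Of all genes tested at 27 months, 1787 of 11865 were called higher in the gastrocnemius and 2026 of 11754 in the tibialis anterior. In the soleus 1121 of 12175 were, and in the diaphragm 393 of 12035. At 24 months these numbers were 1353, 1284, 471 and 263 in the same order of muscles. In the gastrocnemius the median change of the members was -1.10 on the log2 scale against 0.04 for all genes tested, and in the tibialis anterior -0.87 against 0.02. The median was -0.21 in the soleus and 0.02 in the diaphragm, against 0.02 and 0.00 for all genes. When libraries were scaled by total counts alone, the median of all genes moved up to 0.34 for the tibialis anterior, with 4 members then called lower, to 0.32 for the gastrocnemius, with 7, and to 0.16 for the soleus, with 1.

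**Figure D2:**
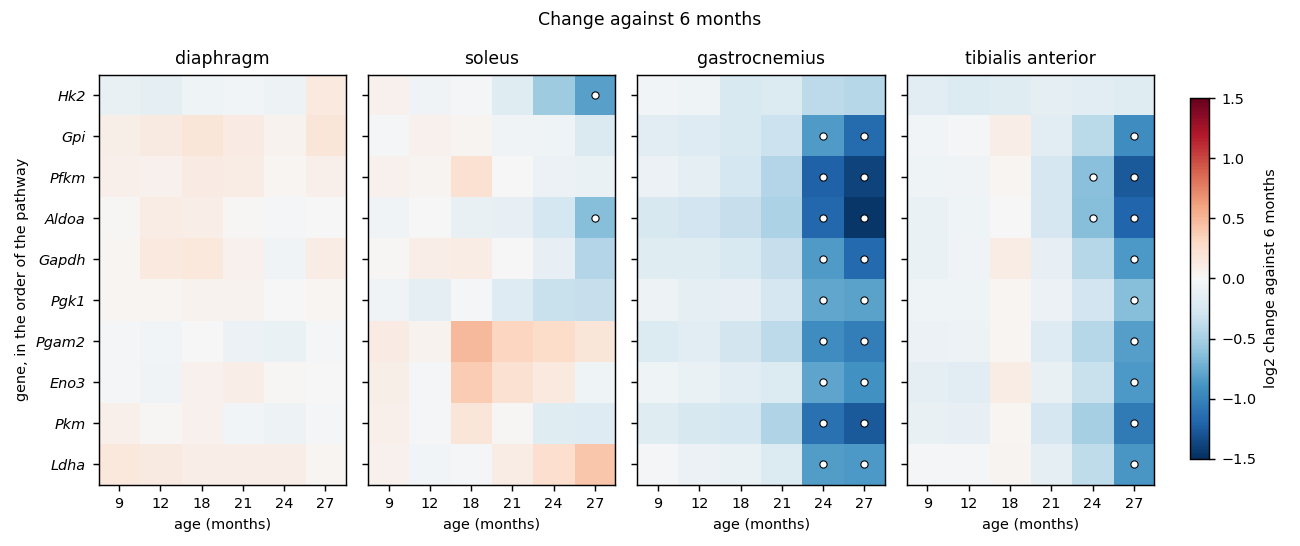
Log2 change of each member against 6 months, by age and muscle, with genes in pathway order from top to bottom. Blue is lower and red higher, and white dots mark called changes, of which the gastrocnemius has 9 at 24 and 9 at 27 months, the tibialis anterior 2 and 9, the soleus 2 at 27 months and the diaphragm none.

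The steps from Gpi to Aldoa, which prepare and split the sugar, had some of the largest falls. Aldoa in the gastrocnemius had 18700 CPM in its lowest, 22555 in its median and 33138 in its highest library at 6 months, and 4160, 7882 and 14228 CPM at 27 months. All 11 libraries at 27 months lay below all 10 at 6 months, and the fall was 2.74-fold (log2 -1.45, SE 0.14, adjusted p = 5.7e-14). In the tibialis anterior Aldoa ran from 19243 through 20572 to 21646 CPM at 6 months and from 3817 through 9721 to 17663 CPM at 27 months, again without overlap, a fall of 2.27-fold (log2 -1.18, SE 0.15, adjusted p = 1.2e-10). Pfkm fell 2.62-fold in the gastrocnemius (SE 0.13, adjusted p = 9.0e-15), where its libraries at 27 months ran from 699 through 1210 to 2245 CPM, and 2.39-fold in the tibialis anterior (SE 0.15, adjusted p = 4.5e-12), where they ran from 616 through 1323 to 2568 CPM. Both ranges lay wholly below the lowest 6-month library, and they did so at 24 months as well, as 2.8% of all tested genes did in the gastrocnemius and 4.67% in the tibialis anterior. Gpi fell 2.23-fold and 1.91-fold in the 2 muscles.

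The later steps fell too, by less in most cases. Gapdh fell 2.24-fold in the gastrocnemius, from a median of 22226 to 9626 CPM, and 1.82-fold in the tibialis anterior, from 22316 to 12510 CPM. Reads of near-identical Gapdh copies in the rat genome could be split between lines, so its level is less certain than those of the other members. Pgk1 had the smallest called falls, 1.75-fold in the gastrocnemius (SE 0.11, adjusted p = 6.1e-09) and 1.56-fold in the tibialis anterior (SE 0.10, adjusted p = 1.9e-08), and the second was no longer called without replicate 5 at 27 months, with a log2 change of -0.58. Pgam2 fell 2.04-fold and 1.77-fold, and Eno3 1.87-fold and 1.82-fold. Pkm fell 2.40-fold in the gastrocnemius, with medians of 3540 and 1478 CPM, and 2.08-fold in the tibialis anterior, with 3596 and 1905 CPM. Ldha fell 1.81-fold and 1.83-fold, to medians of 1238 and 1388 CPM. With total-count scaling the calls of Gapdh (-0.55), Pgk1 (-0.32), Pgam2 (-0.51), Eno3 (-0.56) and Ldha (-0.56) were lost in the tibialis anterior. Those of Pgk1 (-0.52) and Ldha (-0.58) were lost in the gastrocnemius. Across the 9 called members the libraries of 27 and 6 months did not overlap for 6 in the gastrocnemius (Gpi, Pfkm, Aldoa, Gapdh, Pgam2 and Pkm) and for 3 in the tibialis anterior (Pfkm, Aldoa and Pkm). Of all tested genes, 7.57% in the gastrocnemius and 11.3% in the tibialis anterior had every library of 27 months below every library of 6 months.

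Hk2 behaved unlike the other 9 members. In the gastrocnemius its level went from 106, 128 and 143 CPM in the lowest, median and highest library at 6 months to 61.2, 98.9 and 127 CPM at 27 months, and the change of -0.42 (SE 0.08, adjusted p = 9.1e-06) was under 1.5-fold. In the tibialis anterior it was -0.18 (SE 0.08, adjusted p = 0.035), also under 1.5-fold, and 0.14 when scaled by total counts alone. In the soleus it was the member with the largest fall, 1.75-fold (log2 -0.81, SE 0.11, adjusted p = 2.1e-09). Its soleus libraries ran from 66.8 through 74.6 to 90.3 CPM at 6 months and from 23.6 through 45.4 to 65.6 CPM at 27 months, without overlap, and Hk2 was the single member of which this held in the soleus, against 3.42% of all tested genes. The change of Hk2 was lower in the soleus than in the tibialis anterior by 0.64 (SE 0.12, adjusted p = 3.9e-06) and lower than in the diaphragm by a difference of 1.01 (SE 0.12, adjusted p = 7.8e-13).

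The soleus did not move as 1 block. Aldoa was the other member called lower there, from a median of 2941 to 1882 CPM, a 1.56-fold fall (SE 0.08, adjusted p = 2.3e-10). Its call was lost with total-count scaling, at -0.49. Another 4 members had an adjusted p under 0.05 with negative changes under 1.5-fold, namely Gapdh at -0.45, Pgk1 at -0.35, Gpi at -0.22 and Pkm at -0.19. Ldha was the exception in sign, with 118, 146 and 191 CPM at 6 months and 150, 203 and 228 CPM at 27 months in the lowest, median and highest library. That change of 0.42 (SE 0.08, adjusted p = 1.7e-05) was also under 1.5-fold. Pgam2, at 0.18, Pfkm, at -0.10, and Eno3, at -0.06, had adjusted p of 0.067, 0.20 and 0.63, and the last 2 changed sign when scaled by total counts alone.

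In the diaphragm no member was called, and none had all its libraries of 27 months below those of 6 months (1.58% of all tested genes did). Pfkm ran from 1043 through 1184 to 1357 CPM at 6 months and from 963 through 1385 to 1556 CPM at 27 months. Aldoa ran from 6661 through 6927 to 8865 CPM and then from 5493 through 7794 to 9039 CPM. The 10 log2 changes at 27 months ran from -0.03 for Pkm to 0.18 for Gpi, with SE between 0.05 and 0.07, and the signs of Aldoa, Eno3, Pgam2 and Pkm turned when scaled by total counts alone. For Pfkm the 95% interval was -0.04 to 0.19 and for Ldha -0.10 to 0.15, so a fall of the size seen in the gastrocnemius lay outside both. Gpi had an adjusted p of 0.0071 at a 1.13-fold higher level, and Hk2 one of 0.050 at 1.10-fold.

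The change from 6 to 27 months differed between muscles when tested directly. The change in the diaphragm was higher than that in the gastrocnemius for all 10 members, with 7.77% of all genes called that way, by 0.62 to 1.52 on the log2 scale. The lowest of these, that of Hk2, became 0.32 with total-count scaling, 0.57 with DESeq2 and 0.53 with sample quality weights, and was not called in these. It was higher than in the tibialis anterior for 9 members (7% of genes) and higher than in the soleus for 3, Hk2, Aldoa and Gapdh (5.56%). The gastrocnemius fell more than the soleus for 8 members (4.82%). Between soleus and tibialis anterior 7 differed (15.8% of genes in either direction), 6 with the larger fall in the tibialis anterior and Hk2 with the larger fall in the soleus. Between gastrocnemius and tibialis anterior none was called (7.32% in either direction), with differences of -0.30 to 0.02. With total-count scaling further calls of a difference were lost, those of Pgk1 (0.39) and Pgam2 (0.52) for the diaphragm against the tibialis anterior, of Aldoa (0.52) and Gapdh (0.45) for the diaphragm against the soleus, of Gapdh (-0.58) for gastrocnemius against soleus and of Gpi (0.56) for soleus against tibialis anterior. Aldoa and Gapdh of the diaphragm against the soleus were also lost with Bonferroni adjustment, and Gapdh with DESeq2 and with scaling without the members, at 0.57 in both. These 6 comparisons share libraries with one another.

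The called falls came late, and no member was called at 9, 12, 18 or 21 months in any muscle. The shares of all genes called in either direction at these 4 ages were 0.108%, 0.532%, 2.25% and 1.68% in the diaphragm, 0.143%, 0.885%, 4.32% and 5.81% in the gastrocnemius. They were 0.00851%, 0.196%, 5.45% and 6.47% in the tibialis anterior and 0.123%, 0.353%, 2.84% and 2.61% in the soleus. In the gastrocnemius all 10 members were below their 6-month level at each of these 4 ages. Their median change was -0.12 at 9, -0.16 at 12, -0.23 at 18 and -0.33 at 21 months. No member there had an adjusted p under 0.05 before 21 months. At 21 months 4 members did, with changes under 1.5-fold, among them Aldoa at -0.48 and Pfkm at -0.44. At 24 months 9 members were called lower in the gastrocnemius (7.41% of genes), by 0.78 to 1.22 on the log2 scale. In the tibialis anterior 2 were called, Pfkm at -0.63 (SE 0.15, adjusted p = 3.0e-04) and Aldoa at -0.64 (SE 0.16, adjusted p = 3.9e-04), where 3.54% of genes were, and neither was called without replicate 6 of that group. None was called in the soleus (2.64%) or the diaphragm (0.499%) at 24 months.

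Fitted over all ages, each called member in the limb muscles followed a late falling curve. Curves of log2 CPM on age were compared by the Bayesian information criterion. The inflection was taken as the midpoint of the fitted curve, and a curve was late where that lay after 21 months. In the gastrocnemius 9 members were late falling, with inflections from 21.75 to 23.25 months, where 4.48% of all genes were called and late falling. In the tibialis anterior it was the same 9, from 24 to 25.75 months (7.18% of genes). Hk2 had a straight falling line in the gastrocnemius, with no call, and no trend in the tibialis anterior. In the soleus Hk2, at 23 months, and Aldoa, at 25.5 months, were called and late falling (3.07% of genes), while 6 others had a curve without a call. Of these Gpi, Gapdh and Pkm were late falling and Ldha was late rising. Pgk1 was falling with its inflection at 21 months, and Pgam2 was rising with its inflection at 14.25 months. The diaphragm gave no trend for any member. Of all genes there 6.70% were called with a trend of any shape, and 2.51% were called and late falling. The grid of 7 sampled ages limits how well an inflection between 21 and 27 months can be placed.

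The share of all counts that fell on the 10 genes shows their joint weight in each library. Aldoa and Gapdh, whose level is less certain, weigh most in it. In the gastrocnemius at 6 months their medians were 22555 and 22226 CPM, against 6798 CPM for Eno3, the next highest. At 6 months the share ran from 5.01% through a median of 5.49% to 6.53% in the gastrocnemius and from 4.97% through 5.19% to 5.48% in the tibialis anterior. It was 2.67% to 3.21% in the diaphragm, with a median of 2.80%, and 1.36% to 1.56% in the soleus, with a median of 1.43%. By 27 months the medians were 3.04% in the gastrocnemius, 3.55% in the tibialis anterior, 3.14% in the diaphragm and 1.2% in the soleus.

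**Figure D3:**
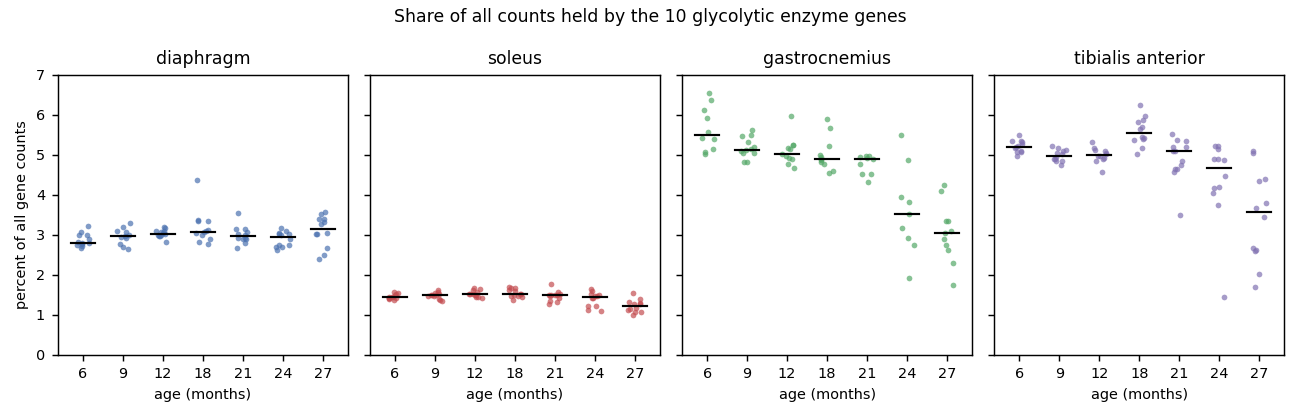
Percent of all gene counts that fell on the 10 genes in every library, by age in months and muscle, with points for libraries and black lines for medians. The median drops from 5.49% to 3.04% in the gastrocnemius and from 5.19% to 3.55% in the tibialis anterior between 6 and 27 months, and the tibialis anterior spreads from 1.69% to 5.09% at 27 months.

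Libraries of the old fast muscles differed widely from each other. In the tibialis anterior the SD of log2 CPM over the libraries of a group had a median over members of 0.06 at 6 months, 0.27 at 21 months, 0.62 at 24 months and 0.62 at 27 months. The gastrocnemius went from 0.18 at 6 months to 0.56 at 24 and 0.44 at 27 months, while the diaphragm went from 0.14 to 0.23. The limma-voom fits used a single residual spread per gene over all their groups. Their SE and p therefore do not follow the spread of the groups compared. The members moved together within a library. Replicate 6 of the tibialis anterior at 24 months was the lowest of 12 for all 10 members, and replicate 5 at 27 months for 9 of them, all but Hk2. Replicate 9 of the gastrocnemius at 27 months was the lowest of 11 for all 10. At the other end, replicate 9 of the tibialis anterior at 27 months was the highest for 8 members, with 2568 CPM of Pfkm against 616 CPM in replicate 5. Each of these 3 lowest libraries also had the least Myh4 of its group, at 10443, 11953 and 10273 CPM. Replicate 9 of the tibialis anterior at 27 months had the most, at 69509 CPM. This did not hold in every group. Replicate 7 of the gastrocnemius at 21 months was the lowest for 8 members, with 43674 CPM of Myh4 in a group of 36389 to 47593 CPM. Replicate 6 of the soleus at 24 months was the lowest for 7 members and had the most Myh4 of its group, at 35.3 CPM. The part of fast fibre content in the spread was not tested.

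The gap between the diaphragm and the fast limb muscles narrowed with age for each member except Hk2 against the gastrocnemius. The gap left at 27 months differed between earlier and later steps, and that difference between members was not tested. At 27 months 5 members were called lower in the diaphragm than in the gastrocnemius (16.6% of all genes), against 9 at 6 months. They were the later steps Pgk1, Pgam2, Eno3, Pkm and Ldha, with differences of -0.61 to -0.99. The calls of Pgk1 (-0.47) and Pgam2 (-0.55) were lost with total-count scaling. The earlier steps had no called difference. Pfkm went from -1.48 at 6 months to 0.04 (95% interval -0.17 to 0.25), Aldoa from -1.66 to -0.16 (-0.39 to 0.08), and Gapdh from -0.96 to 0.36 (0.16 to 0.56). Hk2 went from -0.14 to 0.47, which was called, at 0.61, when scaled by total counts alone. Against the tibialis anterior 3 members were called lower in the diaphragm at 27 months (12.3% of genes), Eno3 at -0.90, Pkm at -0.95 and Ldha at -0.94, and Pgam2 was called as well, at -0.60, by edgeR and by DESeq2. All 10 were higher in the diaphragm than in the soleus (15.7% of genes), all 10 higher in the gastrocnemius than in the soleus (18.5%) and all 10 lower in the soleus than in the tibialis anterior (15.7%). The call of Gapdh between gastrocnemius and soleus was lost with total-count scaling, at 0.52. The largest gap between gastrocnemius and soleus was 6.62-fold for Ldha at 27 months. Gastrocnemius and tibialis anterior again had no member called apart (10.4% in either direction).

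**Figure D4:**
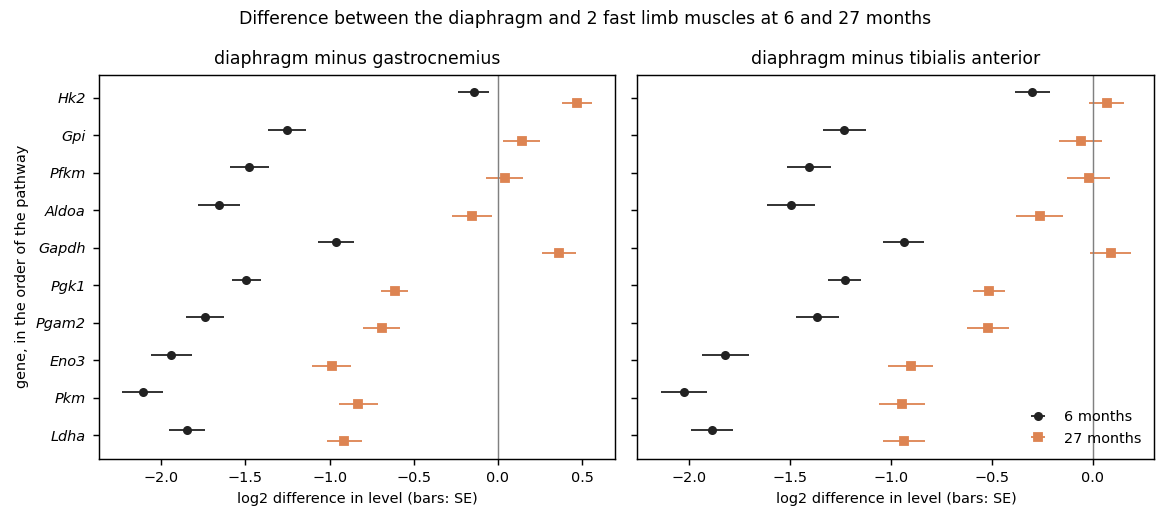
Log2 difference in level between the diaphragm and the gastrocnemius (left) or tibialis anterior (right) for each member at 6 months (dark circles) and 27 months (orange squares), with SE as bars and 0 as a grey line. At 27 months the points of Hk2 to Gapdh lie near or above 0, between -0.26 and 0.47, while those of Pgk1 to Ldha stay between -0.51 and -0.99.

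Tpi1, triose phosphate isomerase, catalyses the step between aldolase and Gapdh, and it fell in the fast limb muscles as these 2 did. It was on 2 lines of the files, which were summed. Its medians at 6 and 27 months were 2220 and 1310 CPM in the gastrocnemius and 1927 and 1224 CPM in the tibialis anterior, and it was called lower in both, at -0.72 (SE 0.11). It was 0.02 in the soleus, where Aldoa was at -0.64 and Gapdh at -0.45, and 0.07 in the diaphragm. Tpi1 was called in neither of these muscles. Tpi1 was listed with the other forms of the pathway's enzymes, and of 11 tested in the gastrocnemius and 12 in the tibialis anterior, Tpi1 was the single one called, with list medians of 0.02 and 0.19. In the soleus 2 of 13 were called, Ldhb lower and Aldoc higher. Ldhb, the lactate dehydrogenase form of oxidative muscle, went from a median of 298 to 173 CPM (log2 -0.80, SE 0.11, adjusted p = 1.7e-09). Aldoc, the brain form of aldolase, went from 1.49 to 2.54 CPM (log2 0.91, SE 0.18, adjusted p = 1.6e-05). None of 12 was called in the diaphragm.

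Of 6 tested genes that set the flux through phosphofructokinase, 4 were lower in the gastrocnemius and 5 in the tibialis anterior, with list medians of -0.80 and -0.86, and 2 of 7 were lower in the soleus and none of 6 in the diaphragm. Pfkfb3, whose product activates phosphofructokinase, ran from 52.3 to 279 CPM at 6 months and from 17.6 to 43.7 CPM at 27 months in the gastrocnemius, and had medians of 130 and 26.8 CPM in the tibialis anterior. Its changes were -2.32 and -2.05, against 0.15 in the soleus and -0.08 in the diaphragm. Pfkfb1, the form of liver and muscle, was lower by -1.31 in the gastrocnemius, -1.71 in the tibialis anterior and -0.84 in the soleus.

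Glucose and lactate carriers moved in both directions. Slc16a3, the lactate exporter MCT4 of fast fibres, had medians of 330 and 119 CPM in the gastrocnemius and 344 and 109 CPM in the tibialis anterior at 6 and 27 months (log2 -1.57 and -1.63). It also fell in the diaphragm, where the enzymes did not, from 30.1 to 12.7 CPM (log2 -1.14, SE 0.18, adjusted p = 1.4e-07). The glucose carrier Slc2a1 rose in the gastrocnemius (0.72) and tibialis anterior (1.43), the latter from 4.75 to 13.2 CPM. Of 8 carriers tested in each muscle, 2 were higher and 2 lower in the gastrocnemius, 2 higher and 1 lower in the tibialis anterior, 1 lower in the soleus and 1 lower in the diaphragm.

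Some genes of the branches that take up pyruvate and NADH were called lower in the limb muscles, and others were not called or were higher. Gpd1, which passes glycolytic NADH into the glycerol phosphate shuttle, went from 1001 to 278 CPM in the gastrocnemius and from 984 to 343 CPM in the tibialis anterior in the median (log2 -1.78 and -1.64), with 0.15 in the soleus. Mdh1, of the malate shuttle, was called lower in the soleus (-1.09) and gastrocnemius (-0.62). Of 7 shuttle genes, 5 were lower in the gastrocnemius, 2 lower and 1 higher in the tibialis anterior, 1 lower in the soleus and none called in the diaphragm. Among 13 genes of pyruvate entry and pyruvate dehydrogenase, 7 were lower in the soleus, 5 lower and 2 higher in the tibialis anterior, 3 lower and 1 higher in the gastrocnemius, and none called in the diaphragm. Pdk2, a kinase that holds pyruvate dehydrogenase back, fell in the gastrocnemius (-1.15), tibialis anterior (-0.99) and soleus (-0.75). Mpc1, a subunit of the mitochondrial pyruvate carrier, fell in the same 3 muscles, by -0.77, -1.05 and -1.04.

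Regulators known to act on glycolytic genes did not share a direction. Mlxipl, the carbohydrate response factor ChREBP, fell in the gastrocnemius (-1.23), tibialis anterior (-1.11) and soleus (-1.38). Myc rose in the same 3, by 2.14, 2.12 and 1.09. Of 10 tested, 4 were lower and 1 higher in the gastrocnemius, 5 and 1 in the tibialis anterior, 2 and 1 in the soleus, and none was called in the diaphragm. Hif1a, the factor of the hypoxia response element searched above and named for that reason, was called in no muscle, with changes under 1.5-fold of -0.51 in the diaphragm (adjusted p = 8.9e-09), -0.39 in the soleus (1.6e-08), -0.19 in the tibialis anterior (7.5e-05) and 0.07 in the gastrocnemius (0.54).

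Patterns over the 28 group means of log2 CPM were compared with those of all 8680 genes above a mean log2 CPM of 2, as a description in which the points share libraries, muscles and scaling. Between members the Pearson correlation was 0.92 to 1.00 over the 36 pairs without Hk2 and 0.82 to 0.88 over the 9 pairs with it. The gene closest to the mean of the 10 members was Ckm, the muscle creatine kinase (r = 0.998), followed by Phkg1, the catalytic subunit of muscle phosphorylase kinase (0.996), Echdc2 (0.994), the muscle sodium channel Scn4a (0.994) and the glycogen phosphorylase Pygm (0.994). Singly, Pfkm lay closest to Pygm (0.998), Aldoa to Ckm (0.995), Gpi to RGD1307752 (0.994), Gapdh to Rxrg (0.985), Pgk1 and Pgam2 to the phosphoglucomutase Pgm1 (0.994 and 0.996), Eno3 to Bpgm (0.993), Pkm to Map3k10 (0.995) and Ldha to Gpd2 (0.995). Hk2 lay closest to Coq9, a gene of coenzyme Q synthesis (0.964). By Spearman's rho another gene came first for each member and for the mean.

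Markers of fibre types and other cells moved with age in the same muscles. The summed level of 7 fast fibre genes at 6 months was highest in the tibialis anterior (201596 to 228911 CPM) and gastrocnemius (167384 to 211777 CPM), lower in the diaphragm (42165 to 69896 CPM) and lowest in the soleus (549 to 1878 CPM), the order that the members had. At 27 months it was 58210 to 190506 CPM in the tibialis anterior, 63029 to 145442 CPM in the gastrocnemius and 36488 to 72521 CPM in the diaphragm. In the soleus it was 1222 to 5723 CPM, and 6 of the 7 genes were called higher there, Actn3 by 3.55 and Myh1 by 3.22, while 2 members fell. In the diaphragm Myh4 alone was called, at 1.37 (SE 0.48, adjusted p = 0.014). The fast fibre genes called lower were 5 in the gastrocnemius and 4 in the tibialis anterior. Of 6 slow fibre genes none was called in the gastrocnemius or diaphragm, 1 was lower in the soleus (Atp2a2, -0.85) and 2 in the tibialis anterior, Myh7 by -1.07 among them. Of 4 general muscle genes, Ckm was lower in the gastrocnemius (-0.83) and tibialis anterior (-0.85) and Myot in the tibialis anterior (-0.88) and soleus (-0.74), and no marker in any list was at 0 in a whole group.

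All 5 adipocyte genes were higher in each limb muscle, Adipoq by 1.44 to 2.01 and Lep by 1.52 to 2.30, and none in the diaphragm, with summed levels at 27 months of 41.9 to 89.4 CPM in the gastrocnemius, 42.3 to 70.9 CPM in the tibialis anterior and 165 to 457 CPM in the soleus. Of 5 macrophage genes 4 were higher in the gastrocnemius and tibialis anterior and 1 in the soleus, Cd163 by 1.09, 1.42 and 0.68, and Cd68 by 0.75 and 1.44 in the first 2. Their sums at 27 months were 126 to 219 CPM, 70.6 to 138 CPM and 178 to 236 CPM in these 3 muscles. Of the T cell genes tested, Cd2 was higher in all 4 muscles (0.71 to 1.81) and Cd8a in the tibialis anterior (0.95), with sums at or under 4.27 CPM in every library of 27 months. Slc4a1 was the single red cell gene called, higher in the soleus (0.64) and tibialis anterior (0.90). Among 4 fibroblast genes Col1a1 was lower in the diaphragm (-1.51), gastrocnemius (-1.89) and soleus (-1.17), and Lum in the diaphragm (-0.73). Of 4 endothelial genes Kdr was lower in the gastrocnemius (-1.06), soleus (-0.74) and tibialis anterior (-0.77). Of the Schwann cell genes S100b was higher in the soleus (0.80) and tibialis anterior (1.08). The part of these cell types in the falls of the enzymes was not tested.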

How the data were processed

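Total RNA was extracted by the authors from muscle kept in RNAlater, depleted of ribosomal RNA and sequenced as strand-specific read pairs. The deposited values are raw counts per gene, made by the authors with the ArrayStudio pipeline (version not given in the sources used here) on a B6.0 rat reference with a RefSeq-based gene model. No normalization was applied to them. Lines of 1 symbol were summed (494 symbols). Groups came from the sample titles.

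Genes were kept with filterByExpr (minimum count 10, minimum total 15), scaled by TMM (edgeR 4.0.16) and tested two-sided with limma-voom (limma 3.58.1, R 4.3.3), with 1 fit per muscle for ages and 1 over all libraries for muscle pairs and differences of changes. Calls needed a Benjamini-Hochberg adjusted p under 0.05 over all tested genes and a change over 1.5-fold. Levels used a prior count of 0.5. Trends needed a BIC gain over 6 and, for a curve, over 2 against a line, and inflections before 12 months were early. On data simulated from the tibialis anterior at 27 against 6 months, 183 of 200 genes changed by 1 on the log2 scale were recovered among 11689 genes, with 2 false calls. The simulated counts had the same spread setting for a gene at all ages. They therefore do not show how the test performs with the unequal spread of the real groups.

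The members, the lists and the comparisons were chosen with earlier results of these data known. Named are all members, in each list the 2 genes with the largest called change at 27 months, the closest gene by correlation for each member and the 5 closest to their mean, and Tpi1, Myh4 and Myh7. Hif1a was named after its values were seen. Some genes of the Schwann cell list are not reported here. Listed genes Hkdc1, Eya1, Mlxip and Ttn are not analysed here. DESeq2 1.42.0 served as 1 alternative.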

Additional observations from a re-analysis of the deposited data

Results flagged for a closer look

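The change of a member between 6 and 27 months differed between 2 muscles in 37 of 60 tests of the difference itself, by limma-voom with the same thresholds as above, and each of the 37 is given here on the log2 scale. The change in the diaphragm minus that in the gastrocnemius was 0.61 for Hk2, 1.39 for Gpi, 1.52 for Pfkm, 1.5 for Aldoa, 1.32 for Gapdh, 0.88 for Pgk1, 1.05 for Pgam2, 0.95 for Eno3, 1.28 for Pkm and 0.93 for Ldha. The change in the diaphragm minus that in the tibialis anterior was 1.17 for Gpi, 1.39 for Pfkm, 1.23 for Aldoa, 1.03 for Gapdh, 0.71 for Pgk1, 0.85 for Pgam2, 0.92 for Eno3, 1.08 for Pkm and 0.95 for Ldha. Against the soleus, the change in the diaphragm was higher by 1.01 for Hk2, 0.69 for Aldoa and 0.61 for Gapdh. The gastrocnemius minus the soleus gave -0.93 for Gpi, -1.29 for Pfkm, -0.81 for Aldoa, -0.71 for Gapdh, -1.20 for Pgam2, -0.84 for Eno3, -1.07 for Pkm and -1.27 for Ldha. The soleus minus the tibialis anterior gave -0.64 for Hk2, 0.71 for Gpi, 1.16 for Pfkm, 1.00 for Pgam2, 0.80 for Eno3, 0.86 for Pkm and 1.29 for Ldha, so that Hk2 was the single member with the larger fall in the soleus.

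Groups of 4 to 10 libraries were searched for a single library far from the rest, which chance finds in about 1 of 20 groups. The gastrocnemius at 6, 21 and 24 months has groups of that size, and none of the 30 sets of values over the 10 members had such a library. The members moved together within a library, so these sets are not independent. All other groups were larger and were not searched, the tibialis anterior at 24 months among them.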

How the results depend on the processing

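Counts of called members are given, with the value reported above first. At 27 months against 6 months a 2-fold threshold took the tibialis anterior from 9 to 3 and the soleus from 2 to 0, and total-count scaling took them to 4 and 1. Total-count scaling took the gastrocnemius from 9 to 7, and at 2-fold Eno3 (-0.90), Ldha (-0.86) and Pgk1 (-0.81) lost their calls there. No fold threshold gave 7 in the soleus and 2 in the diaphragm. At 24 months the gastrocnemius went from 9 to 3 at 2-fold and to 5 with total-count scaling. The 2 in the tibialis anterior became 0 with Bonferroni adjustment, 2-fold, total-count scaling, edgeR quasi-likelihood, DESeq2, sample quality weights or without replicate 6, and 9 with no fold threshold. With no fold threshold 0 became 6 in the soleus at 24 months, 4 (gastrocnemius) and 2 (soleus) at 21 months, and 2 in the diaphragm and 4 in the soleus at 18 months. Between muscles at 27 months 2-fold took diaphragm against gastrocnemius from 5 to 0 and against tibialis anterior from 3 to 0, and no fold threshold gave 6 in the latter and 2 between gastrocnemius and tibialis anterior, as at 6 months (2). For differences of the change, 2-fold gave 6 for diaphragm against gastrocnemius, 5 against tibialis anterior, 1 against soleus, 4 for gastrocnemius against soleus and 2 for soleus against tibialis anterior. Diaphragm against soleus went from 3 to 1 with Bonferroni or total-count scaling and to 6 with no fold threshold. Late trends under total-count scaling were called for 7 members of the gastrocnemius, 4 of the tibialis anterior and 1 of the soleus. The causes were not tested.

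Leaving out 1 library of 6 or 27 months gave 8 to 9 members for the tibialis anterior, and each time 9 for the gastrocnemius, 2 for the soleus and 0 for the diaphragm. Leaving out replicate 7 of the gastrocnemius at 24 months (9) or of the tibialis anterior at 21 months (0), or libraries of another number series, moved no count. The leave-outs at 21 and 24 months were chosen after seeing the data. A replicate block gave the same counts in every comparison (at 27 months 9 for the gastrocnemius, 9 for the tibialis anterior). In the fits of 1 muscle this block joined same-numbered libraries of different ages, which cannot share a rat. Its counts against 6 months therefore say nothing about pairing by rat. The labels do not say what a number marks. Every same-numbered pair of libraries correlated above 0.1 in 3 of 42 sets of 2 muscles at 1 age, and in 0 of the sets at 6 and 27 months. At 6 months the mean correlation of such pairs was 0.25 between diaphragm and tibialis anterior, where other pairs had -0.02. It was 0.18 between soleus and tibialis anterior, 0.18 between diaphragm and soleus, and -0.003 to 0.01 with the gastrocnemius. At 27 months it was 0.33, 0.21 and 0.07 in the same order, and -0.02 to 0.03 with the gastrocnemius. The data thus hint that the numbers may pair libraries in some sets, including some tested between muscles. No called member changed sign in an alternative.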
